A study of Homo sapiens with 8 samples.

Results

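The genes described here are 10 targets of the transcription factor NRF2, taken by name from a table of 28395 genes: NQO1, HMOX1, GCLM, GCLC, TXNRD1, SRXN1, OSGIN1, AKR1C1, AKR1B10 and ME1. They were chosen with earlier results of these data known. Shares of all genes given beside their counts below are therefore a description, not a test. All 10 were found by their Entrez identifiers, and all 10 passed the filter on low values that left 14040 genes for testing. They were measured by sequencing of polyadenylated RNA in 8 libraries of the established human kidney cancer line A-498, in a study of the loss of ANXA4, the gene of the calcium-dependent membrane-binding protein annexin A4. Control 1 and control 2, labelled wild type, carried non-targeting sgRNA-1 and non-targeting sgRNA-2, and the lines labelled ANXA4 KO-1 and ANXA4 KO-2 carried ANXA4 sgRNA-1 and ANXA4 sgRNA-2 (a guide RNA directs the nuclease to its target gene). Each of the 4 lines had 2 replicates, and no further drug or stress was named for any group. Each guide was represented by 1 line, so guide and line could not be told apart, and whether a line was 1 clone or a pool is not given in the sources used here. Nothing in the labels says whether replicates were separate cultures, so p-values measure the spread between these libraries, which may be technical.

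NRF2, encoded by NFE2L2, is held in the cytoplasm and marked for degradation by KEAP1, a cysteine-rich adaptor of a CUL3 ubiquitin ligase. Electrophiles and oxidants modify KEAP1, NRF2 then accumulates, pairs with a small MAF protein and binds antioxidant response elements near its targets. Those targets make glutathione, recycle thioredoxin, supply NADPH, degrade heme and reduce quinones and aldehydes. The pathway is best known in the kidney for protection against oxidative injury, and it is active without stress in some kidney cancers.

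The letters of the antioxidant response element were looked for just upstream of the members, because NRF2 acts through this element and most members were highest in the same line. Promoters in the RefSeq table (GRCh38.p14, 250 bases before to 50 after a start, 300 in all) were matched for 8 of the 10 genes, as 9 windows because TXNRD1 has 2 starts. HMOX1 and AKR1B10 were not matched. The core TGACNNNGC, which fixes 6 letters, was searched on both strands and was found in 4 of the 9 windows (GCLM, ME1 and both starts of TXNRD1), of 3 genes, against 13.3% of 35116 promoters. The letters TGACTCAGC, a special case of that core, were found in ME1 and in 0.561% of all promoters. TGACTCA, the letters of an AP-1 site, which TGACTCAGC contains, was found in ME1 and OSGIN1 and in 4.95% of all promoters. A match is a description of letters, not of binding. A match per gene, chosen upstream of the first start, reads 5′ to 3′ on the strand of the gene with the motif in capitals as follows, and in GCLM the core is on the opposite strand.
GCLM, chr1:93909436-93909484, minus strand: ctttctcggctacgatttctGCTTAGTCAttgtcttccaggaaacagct
TXNRD1, chr12:104215660-104215708, plus strand: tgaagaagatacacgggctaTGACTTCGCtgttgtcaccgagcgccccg
ME1, chr6:83431160-83431208, minus strand: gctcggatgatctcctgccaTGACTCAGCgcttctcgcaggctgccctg
OSGIN1, chr16:83953123-83953169, plus strand: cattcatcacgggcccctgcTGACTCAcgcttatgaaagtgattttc
The motif began 34 bases upstream of the start in GCLM, 99 in TXNRD1, 137 in ME1 and 97 in OSGIN1.

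Libraries held 15784890 to 22631588 reads, mitochondrially encoded genes took 4.67% to 13.8% of them, and a single member had between 579 reads (OSGIN1) and 65868 reads (AKR1B10). ANXA4 itself was 17.1-fold lower in KO-1 than in the controls (log2 fold change -4.10, adjusted p = 5.88e-05, limma) but not in KO-2 (log2 fold change -0.10, adjusted p = 0.818), where its normalized read counts of 3433 and 4142 lay inside the control range of 2821 to 6773. Over all KO-labelled against all control libraries, a two-sided exact permutation test gave p = 0.229, with 0.0286 the smallest p that 70 arrangements allow. That test shuffled single libraries and left out the line, although libraries of a line are not independent. As ANXA4 was not called lower in it, KO-2 is called the line labelled KO-2, and a KO effect was not assumed for it. Of 14 kidney cancer cell markers 13 were tested, with EPCAM and SLC17A3 at a mean under 10, whereas 5 of 6 fibroblast, 5 of 6 immune, 4 of 4 endothelial and 3 of 4 hepatocyte markers had a mean under 10. The summed fibroblast markers, nearly all COL1A1, ran from 553 to 1433 in control and from 180 to 515 in KO-labelled libraries, and their part in the results below was not tested.

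KO-1 had the highest level of 9 of the 10 NRF2 targets in both replicates, an order found for 16% of the genes tested. Relative to the mean of the control lines it had more RNA for the heme-degrading enzyme HMOX1 (2.44-fold), the quinone reductase NQO1 (1.49-fold) and the NADPH-producing malic enzyme ME1 (1.36-fold), the 3 members that passed the test. With the replicate number as a block, 8 members were called higher in KO-1, against 13% of all genes. In the line labelled KO-2 no member passed the test, and AKR1C1 was called lower with that block. SRXN1 was the exception among the members, with no higher level in either KO-labelled line. In bulk RNA a change in the share of cells with a transcript and a change in RNA per cell cannot be told apart.

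**Figure D1:**
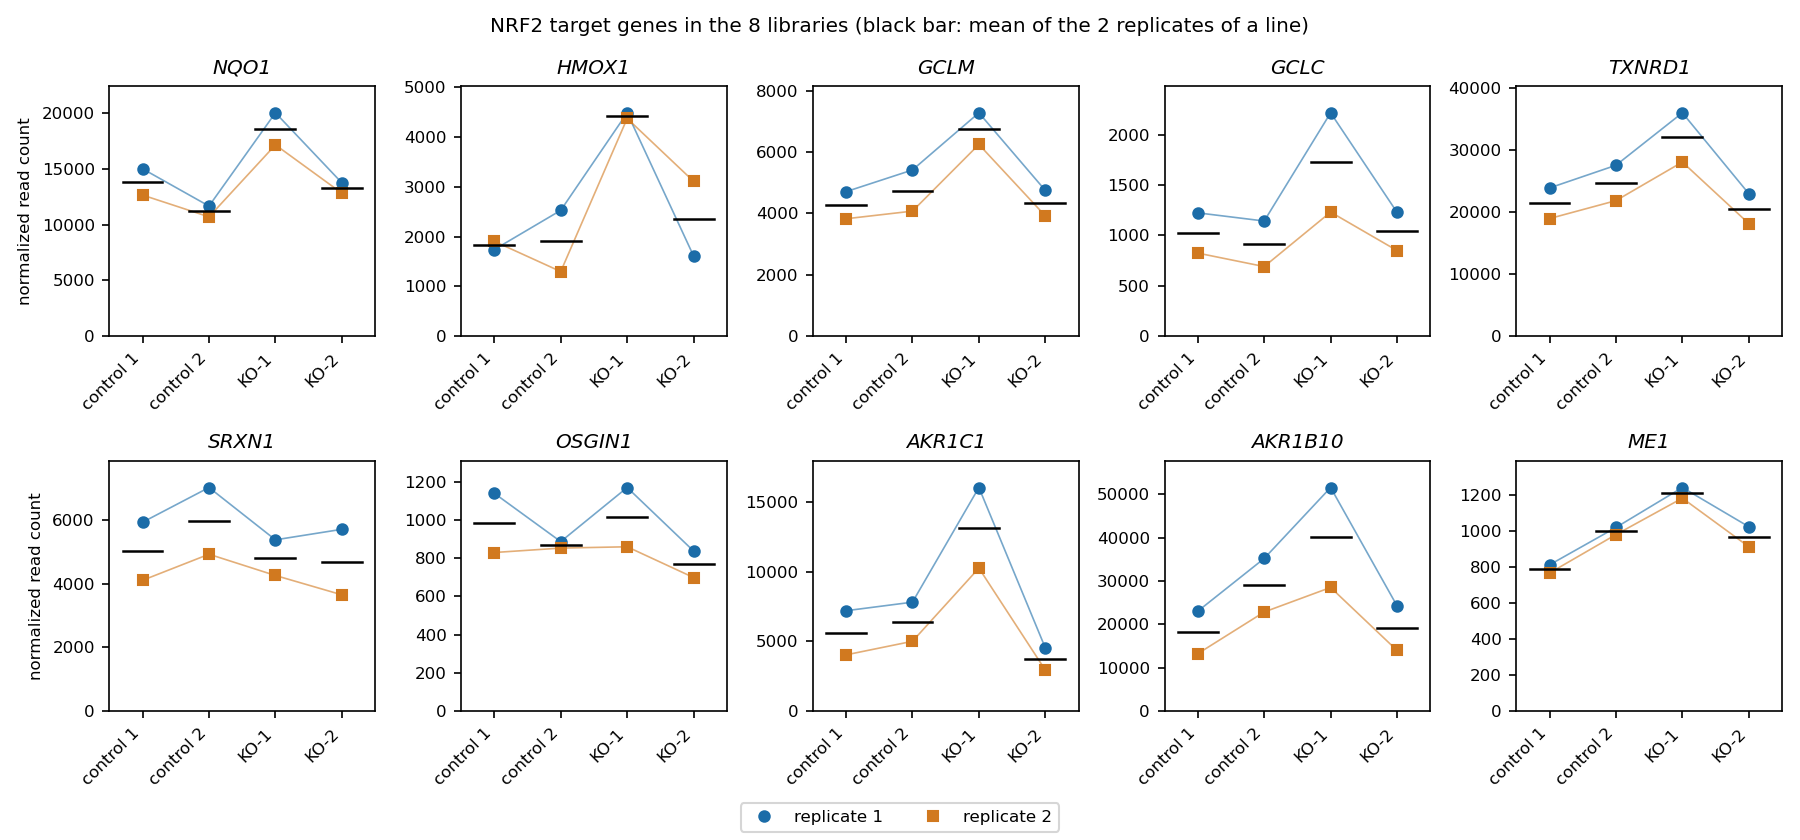
Normalized read count (y axis, linear from 0) of each NRF2 target gene in control 1, control 2, KO-1 and KO-2 (x axis). Circles and squares are replicates 1 and 2, joined across lines, and black bars are means of the 2 replicates. KO-1 is the highest line in both replicates in 9 of the 10 panels, all but SRXN1.

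NQO1 (Entrez 1728, chr16:69709401-69726560), which reduces quinones by transferring electrons in pairs, had counts, normalized by 1 size factor per library, of 14988 and 12636 in control 1, 11652 and 10687 in control 2, 19998 and 17130 in KO-1, and 13733 and 12807 in KO-2 (replicates 1 and 2). Both KO-1 libraries lay above the other 6, and KO-2 lay inside the control range. KO-1 exceeded the controls by 0.58 on the log2 scale (SE 0.13, 95% interval 0.28 to 0.88, adjusted p = 0.0383, limma with Benjamini-Hochberg adjustment over 14040 genes). The difference was 0.60 within replicate 1 and 0.56 within replicate 2. Of the 50-base stretches of the longest NQO1 transcript, 18.1% also occur in other annotated genes, mostly in AC092115.2, against none of those of GCLC, TXNRD1 or ME1. Antisense genes overlap NQO1, GCLC and TXNRD1, and their reads cannot be told apart where counting does not use strand.

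HMOX1 (Entrez 3162, chr22:35381096-35394207), the inducible heme oxygenase, had counts of 1741 and 1906 in control 1, 2528 and 1300 in control 2, 4487 and 4373 in KO-1, and 1612 and 3111 in KO-2. The KO-1 libraries were the highest and lay close together, whereas the replicates of control 2 and of KO-2 differed in opposite directions. The KO-1 difference was 1.28 (log2, SE 0.30, interval 0.61 to 1.96, adjusted p = 0.0383), and it was 1.10 and 1.47 within replicates 1 and 2. KO-2 was 0.38 below the controls in replicate 1 and 0.98 above them in replicate 2, so its mean difference of 0.30 (SE 0.30, adjusted p = 0.576) has no agreed direction.

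ME1 (Entrez 4199, chr6:83210402-83431051), cytosolic malic enzyme and a source of NADPH, had counts of 812 and 766 in control 1, 1020 and 980 in control 2, 1242 and 1183 in KO-1, and 1024 and 913 in KO-2. The replicates of each line were close, the KO-1 libraries were the highest of the 8, and control 1 was the lowest line. KO-1 differed from the control mean by 0.45 (log2, SE 0.11, interval 0.19 to 0.70, adjusted p = 0.0476), by 0.45 within each replicate. The control lines themselves differed by 0.34 in ME1 (SE 0.13, adjusted p = 0.235).

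These 3 calls of 10 members stood against 7.01% of all genes tested called in the same comparison, and 3.82% of all genes tested called higher. Each call was lost when either control 1 library, control 2 replicate 2 or either KO-1 library was left out, with 0 members called each time, and 3 members were called without control 2 replicate 1 (HMOX1, GCLM and AKR1C1). NQO1 reached an adjusted p of 0.286, HMOX1 of 0.217 and ME1 of 0.284 at the highest. With the replicate number as a block, 8 members were called higher, against 13% of all genes (24.4% were called in either direction). The added members were GCLM, GCLC, TXNRD1, AKR1C1 and AKR1B10. Fits with both the block and a library left out, here and below, were chosen after seeing the data. No share of all genes is given for them. All 8 remained called with any 1 library left out, except TXNRD1 and ME1 without KO-1 replicate 2.

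The subunits of glutamate-cysteine ligase, which makes the rate-limiting step of glutathione synthesis, were highest in KO-1. GCLM (Entrez 2730, chr1:93885199-93909430), the modifier subunit, had counts of 4708 and 3826 in control 1, 5415 and 4075 in control 2, 7276 and 6246 in KO-1, and 4749 and 3920 in KO-2. Counts of GCLC (Entrez 2729, chr6:53497341-53545101), the catalytic subunit, were 1224 and 825 in control 1, 1143 and 691 in control 2, 2215 and 1231 in KO-1, and 1229 and 850 in KO-2. In both genes the KO-1 libraries lay above the other 6, for GCLC by a narrow margin in replicate 2, and replicate 1 exceeded replicate 2 in every line. The KO-1 difference was 0.59 for GCLM (log2, SE 0.16, adjusted p = 0.0630, with the replicate block 0.000686). For GCLC it was 0.81 (SE 0.30, adjusted p = 0.143, with the block 0.000196).

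TXNRD1 and SRXN1, which keep thioredoxin and peroxiredoxins reduced, ranked the lines differently. TXNRD1 (Entrez 7296, chr12:104215779-104350307), the selenoenzyme that reduces thioredoxin with NADPH, had counts of 23922 and 18982 in control 1, 27576 and 21875 in control 2, 36039 and 28099 in KO-1, and 23005 and 18176 in KO-2. Both KO-1 libraries were above all others, the lower one by little over control 2 replicate 1, and KO-2 was the lowest line. The difference of KO-1 from the controls was 0.48 (log2, SE 0.18, adjusted p = 0.158, with the block 0.00570). SRXN1 (Entrez 140809, chr20:646615-653200), sulfiredoxin, which restores overoxidized peroxiredoxins, had counts of 5945 and 4116 in control 1, 7039 and 4937 in control 2, 5391 and 4267 in KO-1, and 5722 and 3659 in KO-2. Its lines overlapped throughout, with control 2 the highest line and KO-2 the lowest. The SRXN1 difference of KO-1 from the controls was -0.17 (SE 0.24, interval -0.71 to 0.36, adjusted p = 0.704, with the block 0.216). Of its 50-base stretches 84.7% also occur in the overlapping annotated gene AL121758.1, so SRXN1 reads could have been split or dropped if the annotation used for counting held that gene.

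The aldo-keto reductases, which reduce aldehydes and ketones with NADPH, are represented among the members by AKR1C1 and AKR1B10. AKR1C1 (Entrez 1645, chr10:4963415-4983283), which also inactivates progesterone, had counts of 7209 and 4035 in control 1, 7826 and 5011 in control 2, 16071 and 10276 in KO-1, and 4535 and 2941 in KO-2. KO-1 was the highest line and KO-2 the lowest, with a 3.52-fold ratio of their mean counts. KO-1 differed from the controls by 1.14 (log2, SE 0.30, adjusted p = 0.0581, with the block 6.68e-06). AKR1B10 (Entrez 57016, chr7:134527567-134541412), which reduces retinal and lipid-derived aldehydes, had counts of 23019 and 13221 in control 1, 35195 and 22841 in control 2, 51565 and 28501 in KO-1, and 24255 and 13962 in KO-2. Its KO-1 replicate 2 fell below control 2 replicate 1, so the lines overlapped unless compared within a replicate, where KO-1 was highest both times. The KO-1 difference was 0.79 (SE 0.34, adjusted p = 0.202, with the block 0.000319). Reads of both genes are uncertain because of close relatives: 28.3% of the 50-base stretches of AKR1C1 occur in AKR1C2, and 11.6% of those of AKR1B10 in AKR1B15.

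OSGIN1 (Entrez 29948, chr16:83953240-83966332), an oxidative stress response gene tied to growth arrest, had counts of 1140 and 830 in control 1, 887 and 853 in control 2, 1170 and 860 in KO-1, and 838 and 699 in KO-2. KO-1 and control 1 were nearly level, and KO-2 was lowest. The KO-1 difference was 0.12 (log2, SE 0.18, interval -0.28 to 0.53, adjusted p = 0.710, with the block 0.442). Over the members, both KO-1 libraries lay above all 6 others for 7 of 10, against 10.3% of all genes, the exceptions being SRXN1, OSGIN1 and AKR1B10. The ranges of the line ranked first and the line ranked next were separate for the same 7 genes, and the ranges of the lines at ranks 2 and 3 overlapped for all 10.

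**Figure D2:**
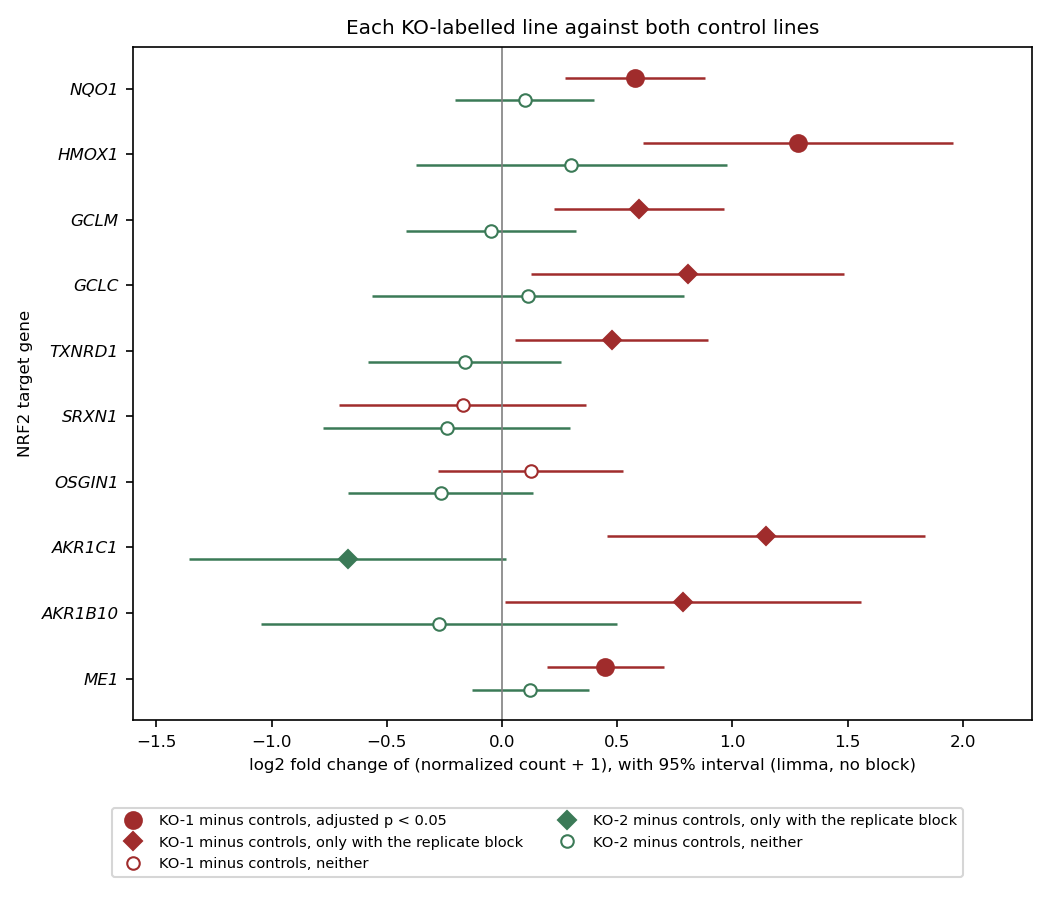
Log2 fold change of each NRF2 target gene (x axis, with 95% interval from the fit without a block) in KO-1 (red, upper) and KO-2 (green, lower) against the control lines. Filled circles passed an adjusted p of 0.05, diamonds only with the replicate block, and open circles neither. NQO1, HMOX1 and ME1 are the filled circles, and AKR1C1 is the member with diamonds on opposite sides of 0.

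Taken as 1 arm, the KO-labelled libraries gave no called member. Against control, 0 of 10 passed (0.235% of all genes did) with limma, and 0 also with edgeR, DESeq2 and the replicate block. The edgeR and DESeq2 fits of this comparison left out the line and took its libraries as independent. No member had an unadjusted p under 0.05 with limma, which 11.5% of all genes had. HMOX1 came nearest, with a log2 difference of 0.79 (SE 0.38, interval -0.04 to 1.62, unadjusted p = 0.0591, adjusted p = 0.462). The 8 positive values among the members, with a median of 0.26 against 0.00073 over all genes, came with KO-labelled lines on different sides of the controls for GCLM, TXNRD1, AKR1C1 and AKR1B10.

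In the line labelled KO-2, 0 of 10 members were called against the controls, and 11.2% of all genes were. With 10 members, 0 is close to that share. Calls by edgeR or DESeq2 were 0 as well. No member had an unadjusted p under 0.05, which 26.7% of all genes had. Their log2 differences ran from -0.67 (AKR1C1, SE 0.30) to 0.30 (HMOX1), with a median of -0.11. AKR1C1 was lower in both replicates, by 0.73 and 0.61, and its adjusted p of 0.198 became 0.000286 with the replicate block, where 27.4% of all genes were called. Under the block HMOX1 was called as well without control 2 replicate 1 or without KO-2 replicate 1, for 2 members in each case. The narrowest intervals were those of NQO1 (-0.21 to 0.40), ME1 (-0.13 to 0.38) and GCLM (-0.42 to 0.32). Wider ones included AKR1C1 (-1.36 to 0.019), AKR1B10 (-1.05 to 0.50) and HMOX1 (-0.37 to 0.97). Each interval bounds the size of a change in KO-2 that these libraries could have missed in that gene. KO-2 replicate 2 had the highest mitochondrial share, 13.8%, and its part in these values was not tested.

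The direct comparison of the KO-labelled lines placed all 10 members lower in KO-2 than in KO-1, with 1 passing the test (6.94% of all genes did, and 4.53% of all genes were lower). AKR1C1 differed by -1.81 (log2, SE 0.35, interval -2.61 to -1.02, adjusted p = 0.0222), a 3.52-fold lower level, and by -1.83 and -1.80 within replicates 1 and 2. This call was lost without either KO-1 library or KO-2 replicate 2, up to an adjusted p of 0.134. With the replicate block 9 members were lower, all but SRXN1, against 14% of all genes (24.5% in either direction), and 6 to 8 with a library left out as well. DESeq2 called 5 members (NQO1, HMOX1, GCLM, TXNRD1 and AKR1C1) and 1382 of 14040 genes. Among the members, AKR1B10 (-1.06, SE 0.39, adjusted p = 0.143) and HMOX1 (-0.98, SE 0.34, adjusted p = 0.121) had the next largest differences.

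The control lines show how far lines with no ANXA4 guide lay apart. Control 2 minus control 1 gave 0 of 10 members called (2.13% of all genes), and 0 with edgeR or DESeq2, with 1 member having an unadjusted p under 0.05 (ME1, 0.0271), against 15.5% of all genes. The largest value was that of AKR1B10, 0.70 (log2, SE 0.39, adjusted p = 0.470), which was 0.61 and 0.79 within the replicates and had an adjusted p of 0.00354 with the replicate block, where 12.5% of all genes were called. That block call was lost without control 1 replicate 1, control 1 replicate 2 or control 2 replicate 2, and ME1 was called as well without either KO-2 library. NQO1 ran the other way, at -0.30 (SE 0.15, adjusted p = 0.406). For AKR1B10 this distance between control lines was close in size to the 0.79 between KO-1 and the control mean. For HMOX1 it was -0.01 (SE 0.34) against 1.28, but this -0.01 is the mean of opposite differences, 0.54 in replicate 1 and -0.55 in replicate 2.

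Most members also differed between the replicates. Replicate 1 exceeded replicate 2 in all 4 lines for 9 of the 10 genes, a pattern of 19.3% of all genes, and 7 members were lower in replicate 2 by limma with line in the model (17.6% of all genes were called, 8.62% lower). AKR1B10 was lower by 0.77 on the log2 scale (SE 0.09, adjusted p = 0.000455), AKR1C1 by 0.69 (SE 0.08), GCLC by 0.67 (SE 0.08) and SRXN1 by 0.51 (SE 0.08). TXNRD1 fell by 0.34, OSGIN1 by 0.30 and GCLM by 0.30 between replicates 1 and 2. The first 4 passed with any 1 library left out, whereas GCLM (up to 0.115) and TXNRD1 (up to 0.0981) were lost without any of the 4 control libraries, and OSGIN1 with any library left out (adjusted p 0.0505 to 0.155). NQO1 (-0.17, adjusted p = 0.147) and ME1 (-0.09, adjusted p = 0.411) missed the threshold. HMOX1 was the member with no common direction, at 0.13 in control 1, -0.96 in control 2, -0.04 in KO-1 and 0.95 in KO-2.

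**Figure D3:**
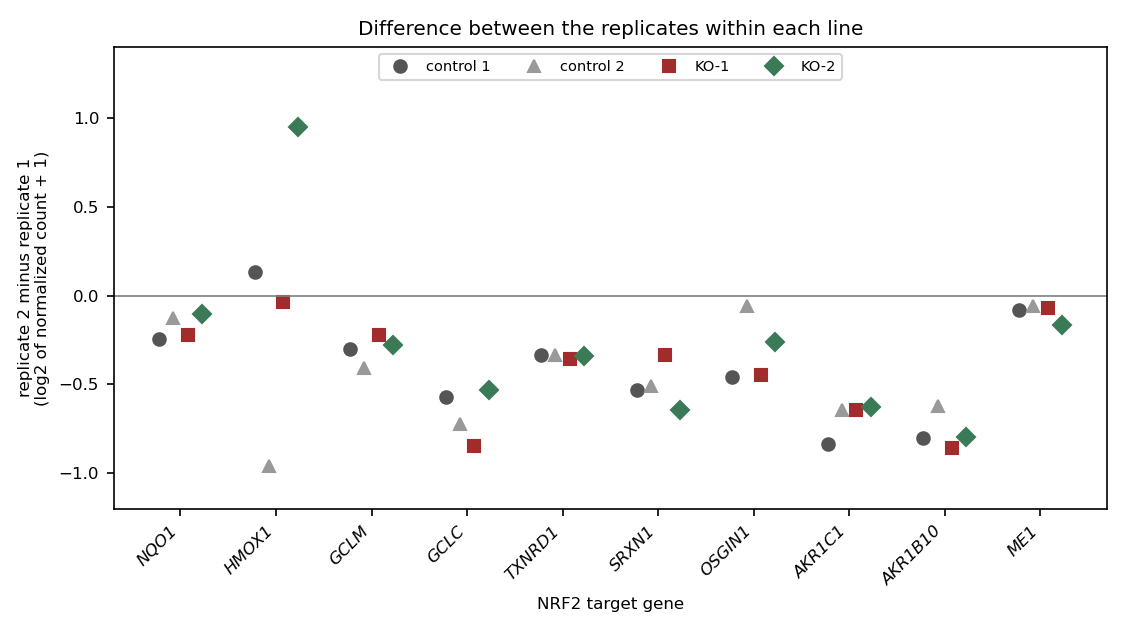
Replicate 2 minus replicate 1 on the log2 scale (y axis) for each NRF2 target gene (x axis), 1 symbol per line. All symbols lie below 0 except for HMOX1, which runs from -0.96 to 0.95.

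The 10 genes together took 0.490% and 0.334% of the reads of control 1, 0.567% and 0.392% of control 2, 0.821% and 0.571% of KO-1, and 0.462% and 0.320% of KO-2. Replicate 1 was the higher of each pair, and KO-1 was highest within each replicate, but KO-1 replicate 2 and control 2 replicate 1 were nearly equal. Replicate 1 was also the deeper library in every line, and the mitochondrial share was higher in replicate 2 in 3 of 4 lines, the exception being KO-1 (6.43% and 6.23%). The part of depth or of mitochondrial RNA in the replicate difference was not tested. Scaling to equal library totals changed the split of all genes from 1260 higher and 1210 lower in replicate 2 to 796 higher and 1868 lower, and called 8 members lower, NQO1 added.

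NFE2L2 and KEAP1 did not pass the test in either KO-labelled line. NFE2L2 had counts of 2925 and 2508 in control 1, 3019 and 2443 in control 2, 3214 and 2956 in KO-1, and 2518 and 2004 in KO-2, and KEAP1 had 2490 and 2386, 2788 and 2473, 2520 and 2336, and 2364 and 1857 in the same order. NFE2L2 lines overlapped, with KO-1 highest within each replicate and KO-2 lowest. Its difference from the controls was 0.18 in KO-1 (log2, SE 0.15, adjusted p = 0.473) and -0.27 in KO-2 (SE 0.15, adjusted p = 0.275, with the block 0.0437), and KEAP1 gave -0.06 (SE 0.13) and -0.27 (SE 0.13, adjusted p = 0.221). NFE2L2 was lower in KO-2 than in KO-1 by 0.46 (SE 0.17, adjusted p = 0.139, with the block 0.00845). Of 15 regulators tested, 0 were called in KO-1, and 1 in KO-2, the kinase GSK3B, lower by 0.70 (SE 0.17, adjusted p = 0.0327). With the block 1 rose and 1 fell in KO-1, and 1 rose and 3 fell in KO-2, where 24.4% of all genes were called in KO-1 and 27.4% in KO-2. The riser in each was SQSTM1, the KEAP1-binding autophagy receptor (0.63 in KO-1 and 0.49 in KO-2).

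Around the members, 8 lists of pathway genes held 104 tested genes, of which 10 rose and 3 fell in KO-1 and 11 rose and 5 fell in KO-2, all against the same control libraries. Of all genes tested, 3.82% were higher and 3.18% lower in KO-1, and 4.54% were higher and 6.67% lower in KO-2. For glutathione, 1 of 23 rose and 1 fell in KO-1: GSR, which regenerates glutathione, by 0.85 (log2, SE 0.20, adjusted p = 0.0383), and GPX3, the secreted peroxidase, by -0.65 (SE 0.13, adjusted p = 0.0212). In KO-2, GSR rose by 0.75 (SE 0.20) and GGT1, which cleaves extracellular glutathione, by 2.02 (SE 0.19), and GPX3 changed by -1.66 (SE 0.13). GPX3 counts were 1827 and 1921 in control 1 and 2791 and 3298 in control 2. They were 1507 and 1532 in KO-1 and 829 and 683 in KO-2. The control lines thus stood further apart in GPX3 than KO-1 stood from control 1. With the KO-labelled libraries as 1 arm, GPX3 differed from control by -1.16 and was not called (SE 0.30, adjusted p = 0.162, limma). GSTP1 is listed at 0 in all 8 libraries, and absent RNA cannot be told apart here from reads not counted.

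In the thioredoxin list, 1 of 16 rose and 1 fell in KO-1. TXNIP, which binds and inhibits thioredoxin, had counts of 660 and 842 in control 1, 604 and 580 in control 2, 283 and 203 in KO-1, and 795 and 878 in KO-2. It was thus lowest in KO-1, by 1.47 below the controls on the log2 scale (SE 0.17, adjusted p = 0.00212), and it was near the controls in KO-2 (0.33, adjusted p = 0.251). SESN2, a stress-responsive regulator of growth signalling, was the gene that rose in KO-1 (0.96, SE 0.20, adjusted p = 0.0279). In KO-2 2 of 16 rose, PRDX5 (0.60) and PRDX3 (0.50), both peroxiredoxins found in mitochondria, and TXNRD3 fell (-0.87, SE 0.21). In KO-1 PRDX5 differed by 0.45 (adjusted p = 0.0564, with the block 0.00461) and PRDX3 by 0.31 (adjusted p = 0.111, with the block 0.0265).

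**Figure D4:**
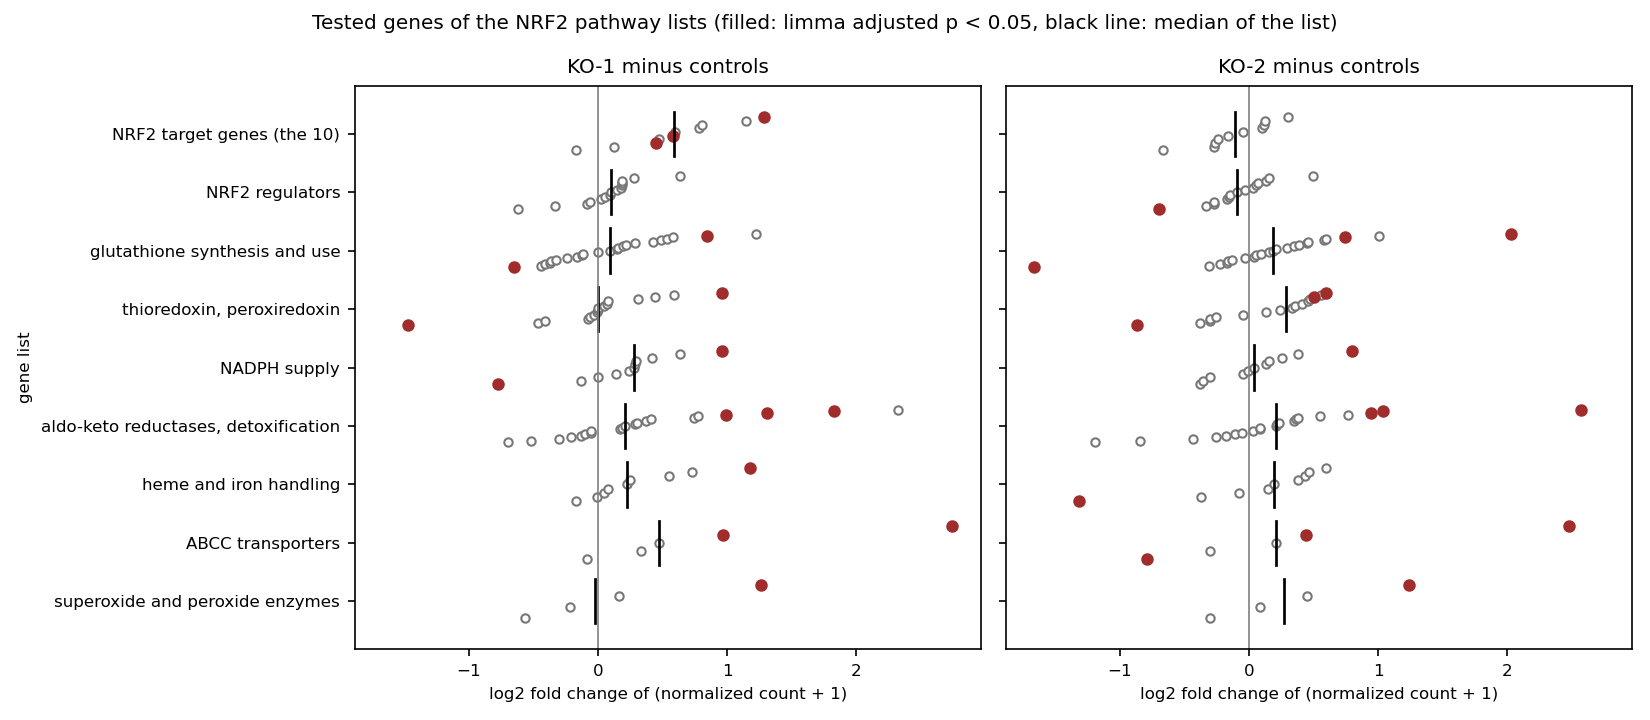
Log2 fold change (x axis) of each tested gene of the members and of 8 pathway lists (y axis) in KO-1 and in KO-2 against the same controls. Filled points passed an adjusted p of 0.05 and black lines are list medians. The members have a median of 0.59 in KO-1 and of -0.11 in KO-2.

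Of 11 tested genes of NADPH supply besides ME1, 1 rose and 1 fell in KO-1. IDH1, the cytosolic isocitrate dehydrogenase, rose by 0.96 (SE 0.19, adjusted p = 0.0220), and IDH2, its mitochondrial relative, changed by -0.77 (SE 0.16, adjusted p = 0.0251). IDH1 counts were 1934 and 1493 in control 1, 1816 and 1400 in control 2, 3573 and 2869 in KO-1, and 1487 and 1071 in KO-2. As in ME1, the KO-1 libraries were the highest of the 8.

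The aldo-keto reductase and detoxification list had 3 of 21 rising in KO-1 and 3 in KO-2, and none falling. AKR1C2, the close relative of AKR1C1, had counts of 1538 and 619 in control 1, 5455 and 3914 in control 2, 10969 and 5208 in KO-1, and 1456 and 594 in KO-2. The control lines stood apart by 2.24 on the log2 scale (SE 0.53, adjusted p = 0.0708, with the block 7.92e-06), so the 1.83 between KO-1 and their mean (SE 0.46, adjusted p = 0.0493) is smaller than the distance between controls. That call was lost with a pseudocount of 0.1, either other filter and all 3 other scalings (adjusted p 0.0506 to 0.0688). AKR1C3 followed a similar order, with 9870 and 5559 in KO-1 against 2853 to 5594 in the controls, and gave 0.75 in KO-1 (SE 0.27, adjusted p = 0.131, with the block 0.00153). AKR1B15 and the retinal dehydrogenase ALDH1A1 rose in both lines, by 1.31 and 0.99 in KO-1 and by 1.03 and 0.95 in KO-2. ALDH3A1, at a mean count under 50 and so outside the rule for named genes, was the other gene that rose in KO-2 (2.57, SE 0.61). In KO-1 ALDH3A1 differed by 2.32 (SE 0.61, adjusted p = 0.0564, with the block 0.000197).

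**Figure D5:**
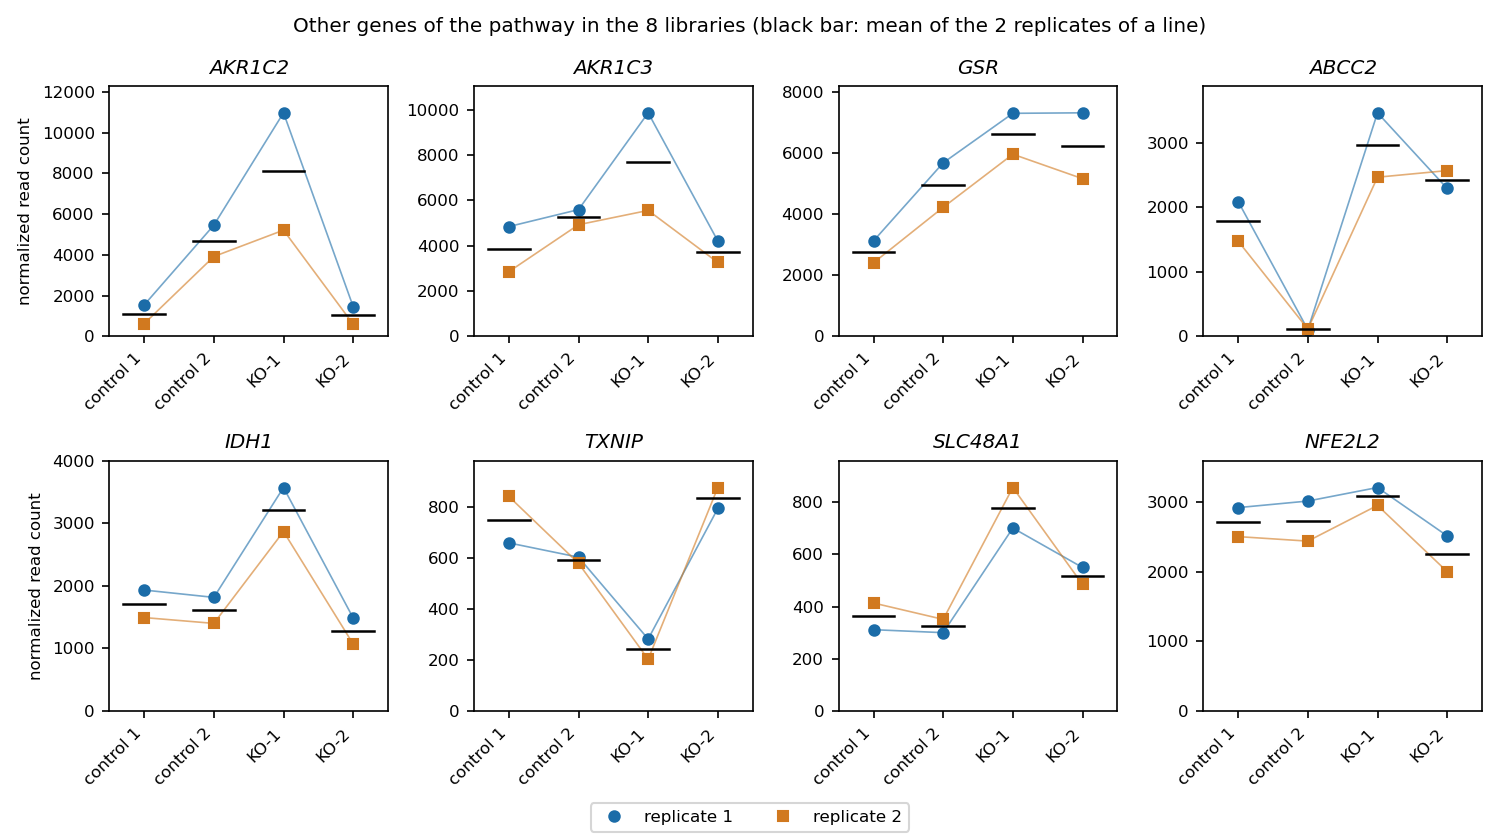
Normalized read count (y axis, linear from 0) of 8 other pathway genes in the 4 lines (x axis), drawn as for the members. AKR1C2 and ABCC2 differ between control 1 and control 2, TXNIP is lowest in KO-1, and NFE2L2 lines overlap.

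Heme and iron genes had 1 of 9 rising in KO-1. SLC48A1, a transporter that exports heme from lysosomes, had counts of 312 and 414 in control 1, 300 and 351 in control 2, 701 and 857 in KO-1, and 550 and 485 in KO-2. It rose by 1.18 in KO-1 (SE 0.17, adjusted p = 0.00541), and in KO-2 it differed by 0.60 (SE 0.17, adjusted p = 0.0512, with the block 0.00523). TFRC, the transferrin receptor, fell in KO-2 by 1.32 on the log2 scale (SE 0.17, adjusted p = 0.00279) and differed by -0.17 in KO-1. HMOX2 was under the filter on low values, and SLC40A1 is listed at 0 in all 8 libraries. For both, low RNA cannot be told apart here from reads not counted.

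Of the 5 ABCC efflux pumps, 2 rose in KO-1, and 2 rose and 1 fell in KO-2. ABCC2 had counts of 2092 and 1477 in control 1 and 103 and 112 in control 2, 4.02 apart on the log2 scale (SE 0.21, adjusted p = 3.94e-05). It rose by 2.74 in KO-1 and 2.48 in KO-2 against the mean of these unlike controls, and its counts in KO-1 (3470 and 2470) and KO-2 (2295 and 2572) lay much nearer to control 1. ABCC3 rose by 0.97 in KO-1 (SE 0.10, adjusted p = 0.00174) and by 0.44 in KO-2 (SE 0.10), and ABCC5 changed by -0.79 in KO-2 (SE 0.19). Among superoxide and peroxide enzymes, SOD2, the mitochondrial superoxide dismutase, was the 1 of 4 that rose, in KO-1 by 1.26 (SE 0.29) and in KO-2 by 1.24 (SE 0.29).

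Of the 13 calls of pathway genes in KO-1, 3 (TXNIP, ABCC2 and ABCC3) held with any 1 library left out, and of 14 such calls of named genes in KO-2, 4 did (GGT1, GPX3, TFRC and ABCC2). For the others the highest adjusted p was 0.341 in KO-1 (AKR1C2) and 0.198 in KO-2 (GSR). Leaving out 1 library keeps both control lines, so for ABCC2 it does not address the distance between those lines. With the replicate block, 29 pathway genes rose and 12 fell in KO-1, and 32 rose and 14 fell in KO-2. Of all genes, 13% were higher and 11.4% lower in KO-1, and 12.5% and 14.9% in KO-2.

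The genes outside these lists whose levels ran most like the members were found by their Pearson correlation with the mean standardized level of the members over 8 libraries, which share 4 lines and 2 replicate numbers. The 5 highest were HDAC4, a class II histone deacetylase (0.986), PITPNM2, a phosphatidylinositol transfer protein (0.985), RNF213, a ubiquitin ligase (0.978), DOCK9, an activator of CDC42 (0.975), and CREB3L2, a transcription factor of the secretory pathway (0.970). HDAC4 had counts of 552 and 405 in control 1, 574 and 404 in control 2, 881 and 705 in KO-1, and 524 and 375 in KO-2. As for the members, KO-1 was the highest line in both replicates and replicate 1 the higher of each pair. This likeness follows from the choice by correlation and is not a separate result. Genes most like NQO1 alone were TM7SF3 (0.971), PM20D2 (0.970) and CRAMP1 (0.966), and those most like HMOX1 alone were MFSD6 (0.932), AKAP11 (0.931) and ZBTB1 (0.928).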

How the data were processed

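Polyadenylated RNA of 8 A-498 libraries (4 lines, 2 replicates each) was analysed. Fastp 0.23.2, HISAT2 2.2.1, featureCounts 2.0.1 and DESeq2 2.11.40.8, with hg38, are named in the submitters' processing notes. Strand use and the annotation are not given in the sources used here. The deposited values are a normalized signal on a linear scale, and the authors divided whole reads by 1 size factor per library: 100% of values came out whole (tolerance 0.001). Of 28395 Entrez identifiers 27725 had a symbol in RefSeq, and the others held 0.124% of reads.

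Differences were tested on log2(value + 1) with limma 3.58.1 (R 4.3.3), a scale that understates changes of low genes, for 14040 genes with at least 10 in at least 2 libraries, with trended eBayes and Benjamini-Hochberg adjustment, and adjusted p under 0.05 as a call. KO against control used a correlation within lines of 0.33, and single lines 1 mean per line, so those p-values hold no variation between lines. The scripts were tested on simulated data. The edgeR quasi-likelihood test on the recovered reads (edgeR 4.0.16) called 1063 genes in KO-1, and DESeq2 1.42.0 was run too. Other alternatives were the pseudocount, filter, scaling, block and each library left out. The block with a library left out was chosen after seeing the data, and no share of all genes is given for it.

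Replicate numbers come from the sample titles. Their differences correlated at 0.285 to 0.501 in all 6 pairs of lines, above the limit of 0.1, so values with the replicate as a block are printed where they change a call. Replicates were not repeats of 1 library (chi-square 18.8 to 72.3 per degree of freedom).

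The members and lists were chosen with earlier results of these data known. Named were the members, ANXA4, NFE2L2, KEAP1, per list up to 4 called genes of mean at least 50 with the largest fold changes, and the 5 genes most like the members and 3 most like NQO1 and HMOX1. SQSTM1, AKR1C3, PRDX3, ALDH3A1 and genes at 0 or under the filter were named after their values were seen. Counts carry no molecular identifiers. One gene of the pathway lists is not reported here.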

Additional observations from a re-analysis of the deposited data

Results flagged for a closer look

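KO-1 and KO-2 differed in several genes by the direct test of their difference (limma, adjusted p under 0.05), as KO-2 minus KO-1 on the log2 scale. ANXA4 differed by 3.998. Of the NRF2 targets, AKR1C1 differed by -1.81. Its relative AKR1C2 differed by -3.02, IDH1 by -1.34, ABCC3 by -0.53, GSK3B by -0.80, TFRC by -1.15 and GPX3 by -1.01. Higher in KO-2 were TXNIP by 1.80, IDH2 by 0.72, GSS, the second enzyme of glutathione synthesis, by 0.71 and GGT1 by 1.93. The GSK3B call was lost with no filter on low values, either equal-totals scaling or edgeR (adjusted p 0.0513 to 0.0710), IDH2 with a pseudocount of 0.1, no filter or edgeR (0.0508 to 0.0648), and ABCC3 with no filter (0.0570). GGT1 and TXNIP passed with any 1 library left out.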

How the results depend on the processing

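The 3 members called in KO-1 became 1 with no filter on low values (HMOX1), 1 with equal library totals (HMOX1), 8 with the replicate block and 6 with DESeq2 (which called 1439 of 14040 genes), and 0 to 5 with a library left out. In KO-2 the replicate block gave 1 member in place of 0, and between the control lines 1 in place of 0. Between KO-2 and KO-1 the 1 call became 9 with the block and 5 with DESeq2, and 0 or 1 with a library left out. Replicate 2 against replicate 1 gave 4 to 6 calls with a library left out in place of 7. Between KO and control no setting gave a call of a member, the block included. The cause of these changes was not tested. A fit that leaves out a library also has fewer samples.

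HMOX1 changed sign between the control lines with edgeR (0.073) and DESeq2 (0.070), and between replicates with equal totals (-0.055) and with equal totals without mitochondrially encoded genes (-0.0091), never as a call. With a library left out, uncalled values crossed 0. For KO against control these were OSGIN1 (-0.20 to 0.037), AKR1C1 (-0.11 to 0.55) and AKR1B10 (-0.035 to 0.52), and in KO-1 OSGIN1 (-0.10 to 0.35). In KO-2 they were HMOX1 (-0.17 to 0.78), GCLM (-0.19 to 0.089), GCLC (-0.15 to 0.38), TXNRD1 (-0.33 to 0.0080), SRXN1 (-0.56 to 0.084) and AKR1B10 (-0.67 to 0.13). Between the controls they were HMOX1 (-0.49 to 0.47), GCLM (-0.059 to 0.35), GCLC (-0.54 to 0.19), SRXN1 (-0.012 to 0.52), OSGIN1 (-0.39 to 0.068) and AKR1C1 (-0.20 to 0.63). SRXN1 between the KO-labelled lines (-0.39 to 0.25) and HMOX1 between replicates (-0.29 to 0.35) crossed it too.

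Of the pathway genes, GSR lost its call in KO-1 and in KO-2 with no filter or equal totals (adjusted p 0.0508 to 0.0804), and in KO-2 TXNRD3 did with no filter (0.0595) and GSK3B (0.0552) and AKR1B15 (0.0543) with equal totals.

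Over all genes, KO against control called 33 genes with limma, 186 with edgeR and 848 with DESeq2. The edgeR and DESeq2 fits of this comparison left out the line and took its libraries as independent. Limma called 71 with no filter and 0 with the mean of each line as 1 sample. It called 1474 with no variation between lines and 7 to 39 with a library left out. The block raised 984 calls in KO-1 to 3432, 1573 in KO-2 to 3851, 299 between controls to 1752 and 975 between KO-labelled lines to 3442. DESeq2 called 649 genes between the controls, and no filter 183. With a library left out these became 148 to 1312, 813 to 1363, 43 to 410 and 87 to 1003, and 2470 between replicates became 706 to 2274. The sign of no called member changed under any setting. Each arm has 4 libraries of 2 lines, which limits the size of a difference that could be detected.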
